A study of Arabidopsis thaliana with 18 samples.

Results

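Opening of the flower was followed in wild-type (WT) Arabidopsis thaliana by setting open flowers of floral stages 13 to 14 against unopened buds of stages 1 to 12. The comparison used every array titled as WT open flowers and every array titled as WT buds, 3 of each, which is 6 of the 18 arrays of the series. The other 12 arrays measured the same stages in a line expressing AtLEJ1 from the 35S promoter (OE, 6 arrays) and in an atlej1 mutant (KO, 6 arrays), and here they supplied a shared estimate of the spread and a side-by-side comparison. WT plants carried neither alteration, and all plants were 5 weeks old and kept in LD conditions, per the labels. The bud sample spans all stages from the first to the last before opening, so it mixes flowers of many ages. Each array was made from 5 µg of total RNA on the Affymetrix ATH1 array, which reads each transcript with a probe set, a group of short probes near its 3' end.

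During the bud stages the anther builds its pollen. The tapetum, the innermost layer of the anther wall, feeds the developing microspores and supplies the outer pollen wall and the pollen coat, and it then breaks down before the pollen is shed. At opening, petals expand, filaments elongate, nectaries secrete sugar, anthers release pollen and pollen tubes grow into the pistil, and after pollination the outer organs age and the ovules begin to form seeds.

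The deposited values are linear intensities, and 22745 probe sets were used. All changes are differences of the mean log2(intensity + 16), open flowers minus buds, with standard errors (SE) from a limma fit over all 18 arrays, and a probe set was called at a Benjamini-Hochberg adjusted p under 0.05. A value is termed dim where it lay at or below the 40th percentile of its own array, which was 118 to 127 intensity units on the 6 WT arrays. Array medians were 208 to 218. Control transcripts read near both ends gave a log2 ratio of the 3' end over the 5' end, a sign of RNA integrity, of 0.711 ± 0.065 for buds and 0.816 ± 0.147 for open flowers (SD over 3 arrays each). Its part in the results was not tested. The labels call the arrays of a group biological replicates without naming the plants.

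The labelled stages were set against marker genes. All 4 tapetum markers that could be read, of 12 listed, were lower in open flowers, and their summed intensity was 18100 to 25757 in buds and 54.0 to 308 in open flowers. Of the mature pollen markers 6 of 13 could be read, 2 higher and 3 lower, with sums of 1704 to 2184 in buds and 2946 to 3124 in open flowers. SWEET9, the 1 nectary marker read of 2 listed, had 299 to 940 in buds and 3205 to 5948 in open flowers. BAN, the 1 seed coat marker read of 4 listed, had 3.37 to 8.05 in buds and 506 to 1562 in open flowers. Of 8 gynoecium and ovule markers INO and SPT were read, none higher and 1 lower. Their sums were 491 to 524 in buds and 364 to 484 in open flowers. The floral meristem markers CLV3 and UFO, of 6 listed, were near 0 in both stages (summed 13.1 to 16.6 and 6.03 to 10.5). The meiocyte marker SDS, of 6 listed, was dim throughout (19.8 to 62.0 and 8.22 to 26.6). No marker of seed storage or of petal and stamen identity was read by a named probe set. In whole flowers, fewer cells of a type and less RNA per cell cannot be told apart, and each array reports shares of its own RNA.

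Between the stages 3889 of 22745 probe sets (17.1%) were called. Of these 2012 (8.85%) were higher and 1877 (8.25%) lower in open flowers. The directions were close in number, but the largest changes were mostly falls. At least 16-fold falls were called for 139 probe sets and rises of that size for 25. Leaving out any 1 WT array gave 129 to 149 such falls and 22 to 32 such rises. The offset sets these numbers, since it limits the change of dim probe sets: with 1 in place of 16 they were 228 and 91, and with 64 they were 78 and 6. At changes of at least 2-fold the order was the other way, with 1246 rises (5.48%) and 1019 falls (4.48%). The median log2 change over all probe sets was -0.04.

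**Figure D1:**
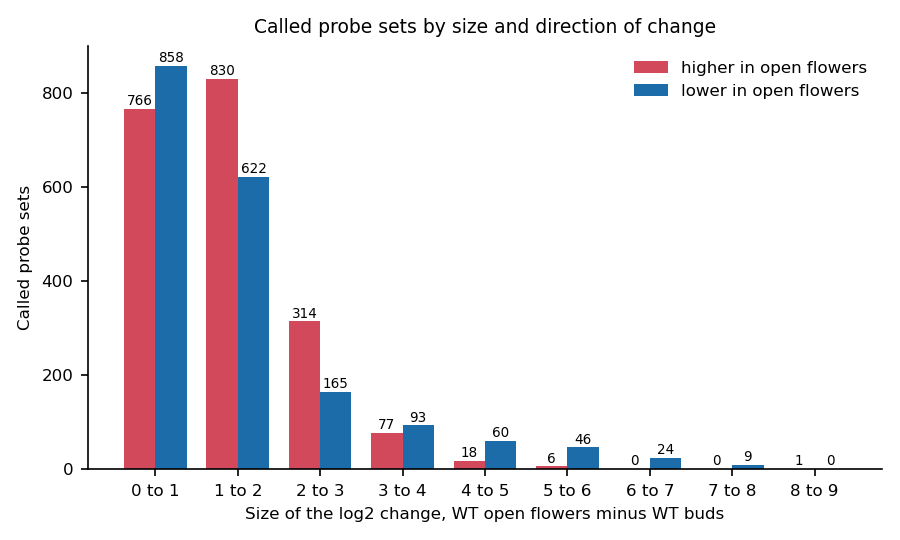
Called probe sets of the WT comparison by size of the log2 change (x axis, classes of 1 log2 unit) and direction (red, higher in open flowers; blue, lower); the y axis is their number. Between 1 and 3 log2 units rises outnumber falls (830 against 622, then 314 against 165), and from 4 to 8 units falls outnumber rises, while the class above 8 holds 1 rise.

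Genes of the tapetum and the pollen wall were among the largest falls. Of 33 listed genes 8 were read, and 7 were lower, with a median log2 change of -5.43 against -0.04 over all probe sets. A9 (AT5G07230), a tapetum gene for a lipid transfer-like protein, read 4609, 4273 and 4100 in buds and 14.9, 3.73 and 2.60 in open flowers. Every bud array was bright and every open array dim, and the log2 change was -7.59 ± 0.46 (SE, adjusted p = 4.3e-09), or at least 31.7-fold when each dim array is placed at its 40th percentile.

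ATA27, a beta-glucosidase of the tapetum, read 17203, 10371 and 12863 in buds and 258, 28.7 and 21.5 in open flowers (-7.42 ± 0.91, adjusted p = 9.5e-06). The stages did not overlap, and only the first open array stayed above its 40th percentile. SHT, which makes the hydroxycinnamoyl spermidines of the pollen coat, read 3098, 2209 and 3706 in buds and 33.8, 15.7 and 15.3 in open flowers (-6.33 ± 0.55, adjusted p = 1.6e-07). The lipase gene EXL5 (AT1G75920) of the pollen coat had a change of -5.44 ± 0.67 (adjusted p = 9.6e-06).

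Regulators of the anther fell with these products. AMS, the bHLH factor that drives tapetum and pollen wall genes, read 847, 1247 and 1080 in buds and 1.79, 12.5 and 14.6 in open flowers (-5.41 ± 0.39, adjusted p = 1.9e-08, at least 7.76-fold). SPL, which starts sporogenous tissue, read 281, 202 and 221 and then 2.31, 5.78 and 4.29 (-3.63 ± 0.22, adjusted p = 3.6e-09). For both genes all open arrays were dim. SWEET8, a sugar transporter needed for the patterned pollen wall, fell by 3.08 on the log2 scale and stayed above the 40th percentile in open flowers, at 200, 270 and 310. EMS1, the receptor kinase that specifies tapetum cells, was the 1 member not called, with a change of 0.33 (95% interval -0.08 to 0.73) and arrays of 541 to 797 in buds and 701 to 1083 in open flowers.

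The 15 largest falls that name 1 gene ranged from 6.19 to 7.59 log2 units. Along with A9, ATA27 and SHT they included the lipid transfer protein family genes AT5G62080, AT3G52130, AT4G14815 and AT1G66850. Others were LCR66, for a defensin-like peptide, AT1G33430, a galactosyltransferase gene of the pollen outer wall, AT2G03740, with a late embryogenesis abundant domain, and AT5G13380, of the GH3 family. AT1G68875, AT1G47980, AT1G02813 and AT1G28375 completed the set. In 12 of the 15 all open arrays were dim, with bounds of at least 17.7-fold to at least 48.2-fold. Among falls from a bud mean above 5000 units a further gene was AT1G06260, a cysteine proteinase gene, at 7255, 3445 and 4830 in buds and 146, 24.2 and 38 in open flowers.

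Among the 3 open arrays, replicate 1 gave the highest intensity for 13 of these 15 genes. AT1G66850 is an example: it read 26490, 19172 and 22295 in buds and 1128, 196 and 105 in open flowers (-6.19 ± 1.16, adjusted p = 8.1e-04). Replicate 1 was also the lowest open array for 10 of the 15 largest rises described below. Over all calls, however, replicate 1 was the highest open array for 913 of 2012 rises, against 585 and 514 for replicates 2 and 3. Of 1877 falls it was highest for 699, against 596 and 582. Without open replicate 1 all of these 15 falls and 15 rises kept their call, which was likely for genes chosen by size. The comparison then gave 143 falls and 28 rises of at least 16-fold.

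**Figure D2:**
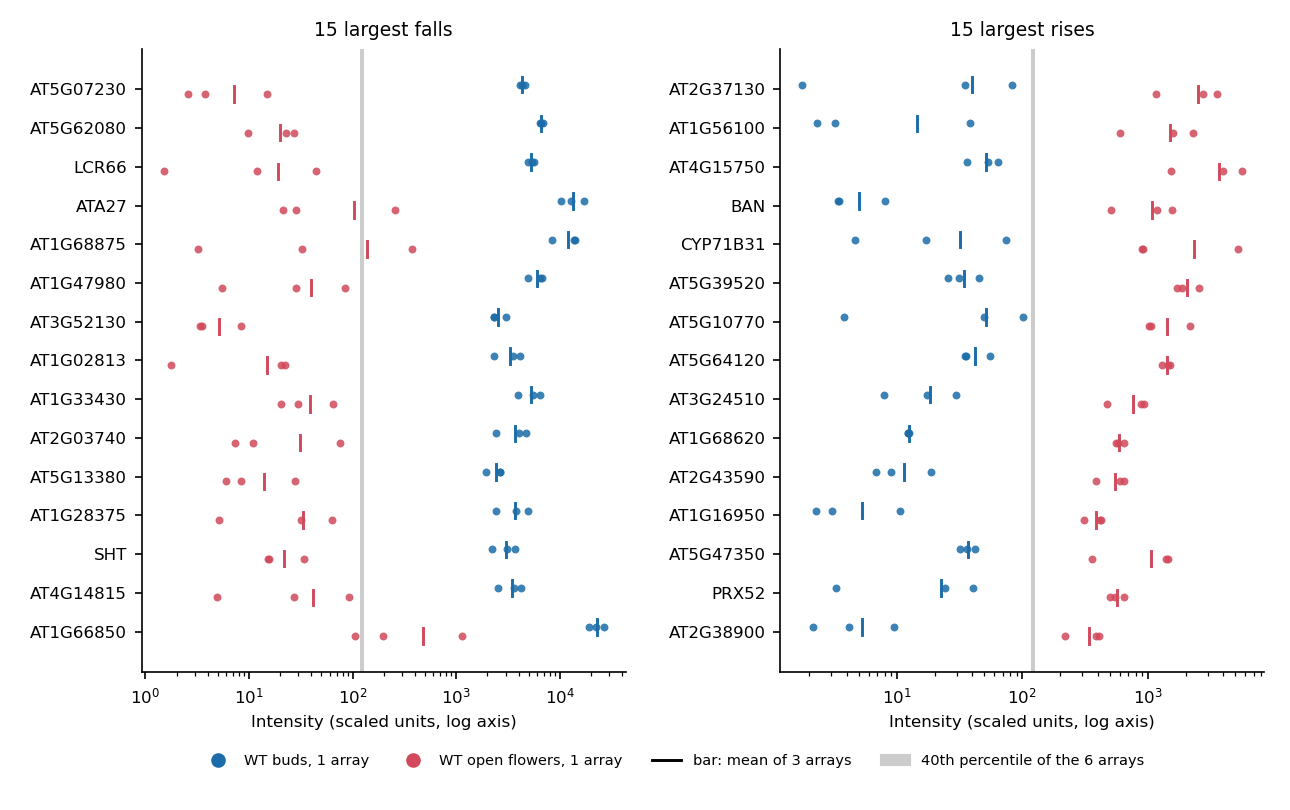
Intensity of the 15 largest falls (left) and 15 largest rises (right) in each WT array (log axis; blue points, 3 bud arrays; red points, 3 open-flower arrays; bars, means of 3; grey band, the 40th percentiles of 118 to 127). The genes were chosen among those whose stages do not overlap, and the low stage lies mostly left of the band.

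Lipid transfer proteins, small secreted carriers of lipids, changed in both directions. Of 88 listed genes 42 were read, 8 higher and 11 lower (45.2% called), with a median of -0.21. AT3G07450 read 2941, 2863 and 2186 in buds and 31.2, 15.7 and 21.4 in open flowers (-6.12 ± 0.31, adjusted p = 8.1e-10). By contrast, AT1G05450 read 120, 192 and 117 in buds and 1171, 828 and 885 in open flowers (2.64 ± 0.21, adjusted p = 8.1e-08), and AT5G09370 had a change of 3.28 ± 0.48 (adjusted p = 6.6e-05). Members of 1 family thus changed in opposite directions. The highest change of the list, 3.28, lay below those of the 15 largest rises, which began at 4.03.

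Genes of mature pollen also divided. Of 31 listed, 10 were read, 4 higher and 4 lower, with a median of 0.26. ANX2, a receptor kinase that keeps the growing pollen tube intact, read 44.7, 102 and 58.0 in buds and 402, 446 and 432 in open flowers (2.45 ± 0.34, adjusted p = 3.6e-05). AT4G39110 and AT2G21480, known as BUPS1 and BUPS2, receptor kinases of the same pathway, rose by 1.39 ± 0.24 and 1.01 ± 0.22 (adjusted p = 3.1e-04 and 0.0033). TUA1, an alpha-tubulin of pollen, rose by 1.29 ± 0.16.

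The falls among pollen genes were led by SWEET5, named AtVEX1 in the annotation, a sugar transporter of the pollen vegetative cell. It read 1815, 2203 and 2150 in buds and 46.7, 89.7 and 66.5 in open flowers (-4.66 ± 0.27, adjusted p = 3.4e-09, at least 15.1-fold). AGL104 and AGL66, MADS factors of pollen maturation, had changes of -1.67 ± 0.19 and -0.73 ± 0.22, and the second call was lost in 5 of 16 alternative fits, among them the fit without open replicate 1 (adjusted p up to 0.118). ACT12, an actin of pollen, had -0.97 ± 0.22. ANX1 (95% interval 0.10 to 1.48) and ACT11 (-0.68 to 0.15) were not called. Outside the list, MGH3, the histone H3 of male gametes, read 295, 309 and 234 in buds and 87.8, 76.3 and 53.5 in open flowers (-1.75 ± 0.22, adjusted p = 1.4e-05).

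YAB3, which sets the lower side of lateral organs, read 378, 526 and 417 in buds and 129, 148 and 164 in open flowers (-1.48 ± 0.22, adjusted p = 7.7e-05), the clearest of 7 meristem and organ genes read, of which 2 were lower and 1 higher. JAG, a factor of organ growth, was dim in all arrays (-0.85 ± 0.23), as was the petal gene RBE (1.21 ± 0.39), and these calls were lost in 4 and 6 of 15 alternative fits, both of them without bud replicate 3. Of 6 histone probe sets 3 were lower and none higher: MGH3, the centromeric histone HTR12 (-0.65 ± 0.18) and HTB2 (-0.53 ± 0.16). The last 2 calls were each lost in 4 of 16 alternative fits, including that without open replicate 1. No member of the meiosis list was called among the 7 read, of 21 listed, with changes from -0.91 to 0.03. The recombination gene ZYP1b came closest (95% interval -1.56 to -0.26, adjusted p = 0.052). It was called lower with the replicate block, a fit with added terms for the replicate number (adjusted p = 0.039). The list also had 1 lower call with quantile normalization, without the intensity trend and without bud replicate 1. The intervals of ZYP1b and SDS contained changes of 2-fold.

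Of 15 IQD genes, whose products bind calmodulin and microtubules, 5 were lower and none higher, led by IQD19 (-1.80 ± 0.26) and iqd21 (-1.42 ± 0.22). The count was 3 when bud replicate 2 or 3, or open replicate 2 or 3, was left out, and 1 member was higher with the replicate block. Of 5 class XI myosins, motors that carry organelles along actin, 2 were lower. XIE read 591, 519 and 376 in buds and 31.1, 47.6 and 49.6 in open flowers (-3.11 ± 0.28, adjusted p = 2.5e-07), and XIC had -1.85 ± 0.26. The intervals of XIH, XI-I and XIJ contained 0. Of 7 tubulin probe sets TUA1 was higher and TUB1 lower (-0.76 ± 0.16), and with the replicate block 2 were higher.

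Genes that remodel pectin changed in both directions. Pectate lyases cut the pectin backbone. Of 26 listed genes 23 were read, and 6 were higher and 6 lower (52.2% called, against 17.1% of all probe sets). AT5G55720 read 1546, 1020 and 1905 in buds and 42.3, 45.3 and 1.29 in open flowers (-5.21 ± 0.51, adjusted p = 7.4e-07, at least 10.7-fold). AT1G30350 and AT4G13210 had changes of -3.95 ± 0.34 and -3.20 ± 0.19. In these 3 genes all open arrays were dim. On the other side, AT59, a pectate lyase of pollen, read 231, 388 and 231 in buds and 1755, 2005 and 1649 in open flowers (2.64 ± 0.32, adjusted p = 9.2e-06). AT2G02720 rose by 2.31 ± 0.26 and AT5G15110 by 1.52 ± 0.28.

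AT1G56100 and AT4G15750, both taken from the 15 largest rises, belong to the family of invertase and pectin methylesterase inhibitors. Pectin methylesterase demethylates pectin in the wall. Which enzyme these genes act on was not tested, and no list of the family was made. AT4G15750 read 53.0, 63.7 and 36.5 in buds and 1520, 5660 and 3975 in open flowers (5.63 ± 0.45, adjusted p = 7.3e-08, at least 23.2-fold). AT1G56100 read 3.24, 38.2 and 2.29 and then 606, 2275 and 1604 (5.63 ± 0.48, adjusted p = 1.3e-07). For both, open replicate 1 was the lowest of its group and still far above every bud array.

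Class III peroxidases, secreted enzymes that stiffen or loosen walls and make lignin, numbered 55 read of 73 listed. In all, 14 were higher and 10 lower (43.6% called), with a median of 0.07. AT2G37130, the largest single-gene rise of the comparison, read 1.77, 83.5 and 34.7 in buds and 1158, 3577 and 2777 in open flowers (5.67 ± 0.58, adjusted p = 1.1e-06, at least 16.2-fold). AT5G64120 read 35.3, 34.8 and 55.6 and then 1446, 1287 and 1512 (4.64 ± 0.40, adjusted p = 1.5e-07), and PRX52, a peroxidase of lignin formation, had 4.04 ± 0.30. AT4G16270 went the opposite way, from 749, 1032 and 1150 to 7.61, 80.3 and 29.8 (-4.38 ± 0.44, adjusted p = 1.0e-06).

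Other wall enzymes showed smaller sets of calls. XTH enzymes cut and rejoin xyloglucan, and of 10 probe sets 5 were higher and 1 lower. XTH19 read 96.1, 119 and 89.9 in buds and 1658, 296 and 464 in open flowers (2.43 ± 0.47, adjusted p = 9.5e-04), and XTH29 had 1.67 ± 0.27. XTH16 had -1.15 ± 0.22. Among 15 family 9 cellulases 3 were higher, led by GH9B11 (2.70 ± 0.32) and GH9A4 (2.1 ± 0.28), and 2 were lower, GH9B18 (-1.18 ± 0.26) and GH9B13 (-1.05 ± 0.24). Of 19 expansins, which loosen walls without cutting them, EXPB5, EXLA1 and AT4G30380 were higher (1.55, 1.44 and 1.32) and EXPA24 was lower (-1.43), while 15 were not called. With the replicate block 5 were higher.

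All 4 genes read for the backbone of xylan, a polymer of thickened walls, were lower. GUT2 (also called IRX10) read 237, 247 and 272 in buds and 148, 154 and 127 in open flowers (-0.76 ± 0.15, adjusted p = 0.0015), and IRX15, dim throughout, had -1.73 ± 0.41. The calls of IRX15-L (-1.19 ± 0.38) and GUT1 (-0.33 ± 0.11) were lost in 5 and 9 of 16 alternative fits, and the count was 2 in the 6 WT arrays alone and without bud replicate 1 or 3 or open replicate 3. CSLA01, of the glucomannan synthase family, fell by 2.33 ± 0.53, from 2745, 1876 and 2344 to 931, 227 and 407. Of 24 TBL probe sets, whose products add acetyl groups to wall polymers, 6 were higher and 3 lower. Both probe sets of AT2G31110 were higher (1.44 ± 0.12 and 1.4 ± 0.18), and TBL26 was lower (-1.32 ± 0.20).

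Glucanases and chitinases hydrolyse the callose of plant walls and the chitin of fungi, and some of their members act against pathogens. Of 50 beta-1,3-glucanases listed 40 were read, 3 higher and 7 lower (25% called), with a median of -0.23. The lower count was 4 without bud replicate 3 and 3 in the 6 WT arrays alone. AT3G23770 read 1730, 1590 and 1858 in buds and 38.7, 30.5 and 2.85 in open flowers (-5.58 ± 0.32, adjusted p = 3.4e-09). The 3 rises were all of more than 3 log2 units. AT5G20390 is an example, at 39.1, 103 and 45.3 in buds and 965, 1019 and 989 in open flowers (3.77 ± 0.39, adjusted p = 1.5e-06).

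Chitinases were read for 15 of 24 listed genes, with 5 higher and 1 lower. AT2G43590 read 8.98, 6.89 and 18.7 in buds and 601, 388 and 642 in open flowers (4.34 ± 0.30, adjusted p = 1.4e-08, at least 3.90-fold). The other large rises were of CHI at AT2G43570 (3.69 ± 0.38), AT2G43620 (3.04 ± 0.32) and ChiC (2.86 ± 0.29). AT2G43570, AT2G43590 and AT2G43620 carry neighbouring locus numbers, and cross-hybridisation between such relatives was not tested. The call of a further member, AT2G43610 (0.54 ± 0.18), was lost in 10 of 16 alternative fits.

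Secreted signalling and defence peptides were called in both directions. RALF peptides bind receptor kinases of the family that includes ANX2, and of 11 probe sets 4 were higher and 1 lower. RALFL26 read 664, 1142 and 449 in buds and 5579, 3503 and 4461 in open flowers (2.64 ± 0.31, adjusted p = 6.7e-06). RALFL28 had 3.03 ± 0.25, RALFL18 2.54 ± 0.42 and RALFL25 2.08 ± 0.22, while RALFL34 had -0.77 ± 0.18, 1 of 2 lower calls with the replicate block. The bud arrays of RALFL28 and RALFL18 were all dim, so the size of their changes depends on the offset.

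Of 12 defensin-like LCR and PDF probe sets 4 were higher and 2 lower. LCR66 had the largest fall of the family, from 5343, 4877 and 5681 to 44.2, 12.0 and 1.51 (-7.42 ± 0.62, adjusted p = 1.1e-07, at least 38.8-fold). LCR80 moved from 1.4, 3.63 and 3.52 to 228, 236 and 190 (3.63 ± 0.22, adjusted p = 4.0e-09), and LCR24 and LCR72 had 2.92 ± 0.30 and 1.75 ± 0.22. THI2.1, a thionin gene, was bright in both stages, at 8917, 8358 and 7194 in buds and 19040, 19536 and 19126 in open flowers (1.24 ± 0.13, adjusted p = 1.9e-06).

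**Figure D3:**
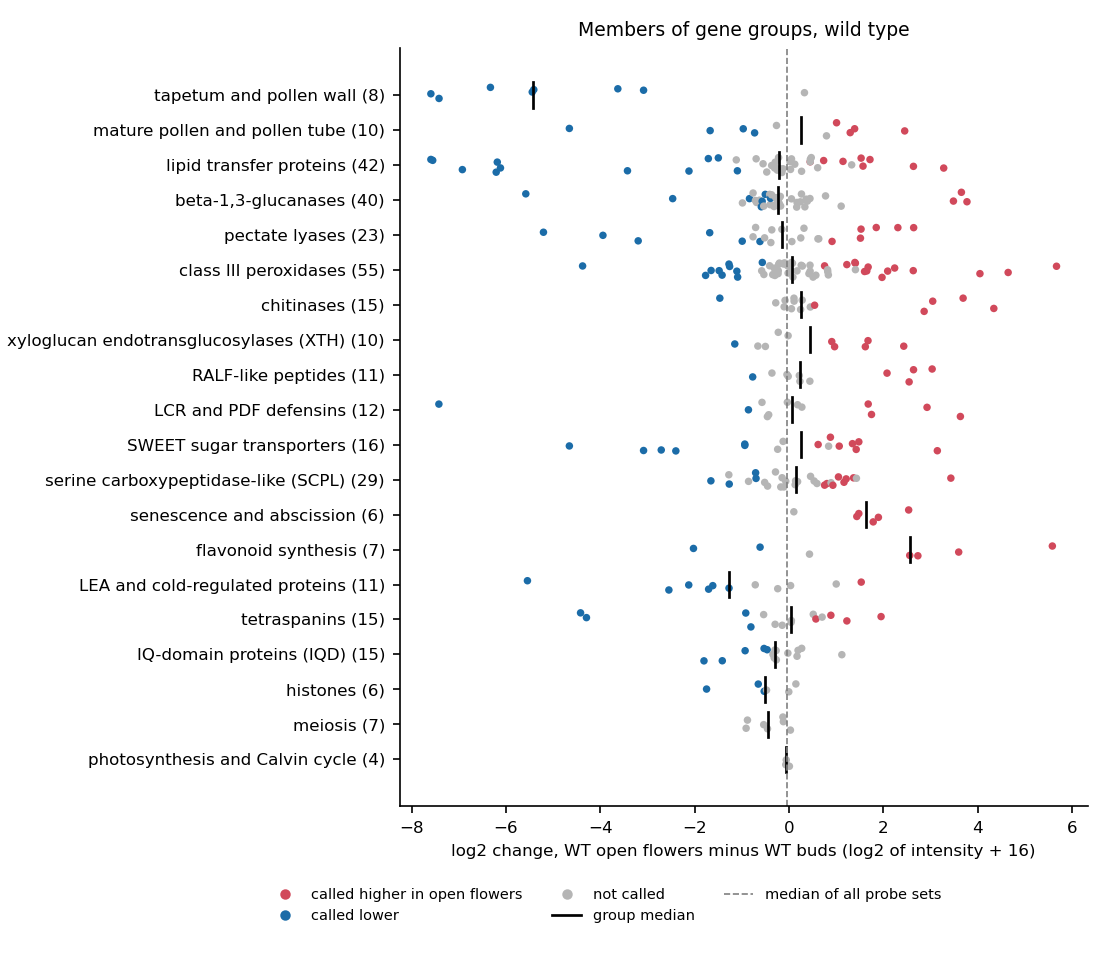
log2 change from buds to open flowers of WT (x axis) for each read member of 20 gene groups (number of probe sets in brackets); red points were called higher, blue lower, grey not called, black bars are group medians and the dashed line is the median of all probe sets, -0.04. The tapetum group lies at a median of -5.43, and most other groups hold members called in both directions.

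SWEET sugar transporters were read for all 16 listed genes, and 13 were called, 7 higher and 6 lower. SWEET9, which exports sucrose from the nectary, read 299, 940 and 342 in buds and 5948, 3205 and 3837 in open flowers (3.14 ± 0.45, adjusted p = 4.9e-05). Bud replicate 2 lay above the other bud arrays, and no bud array reached an open one. SWEET4 rose from 1581, 1314 and 979 to 4957, 2921 and 2769 (1.42 ± 0.23, adjusted p = 1.9e-04).

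Sucrose carriers of vascular and other tissues rose by less than SWEET9. SWEET11 had a change of 1.34 ± 0.16, SWEET13 of 1.06 ± 0.26 and SWEET14 of 0.88 ± 0.22, the last lost in 1 of 16 alternative fits, without open replicate 3 (adjusted p = 0.0553). SWEET15 (SAG29 in the annotation), linked to senescence, had 1.48 ± 0.26, and SWEET1, a glucose carrier, 0.62 ± 0.14. Besides SWEET5 and SWEET8, falls were called for SWEET3 (-2.71 ± 0.22), SWEET7 (-2.40 ± 0.28) and SWEET17, a fructose carrier of the vacuole (-0.94 ± 0.20). SWEET10 had -0.94 ± 0.30, a call lost in 5 of 16 alternative fits. SWEET2 was not called (0.84) except with the replicate block (adjusted p = 0.017).

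**Figure D4:**
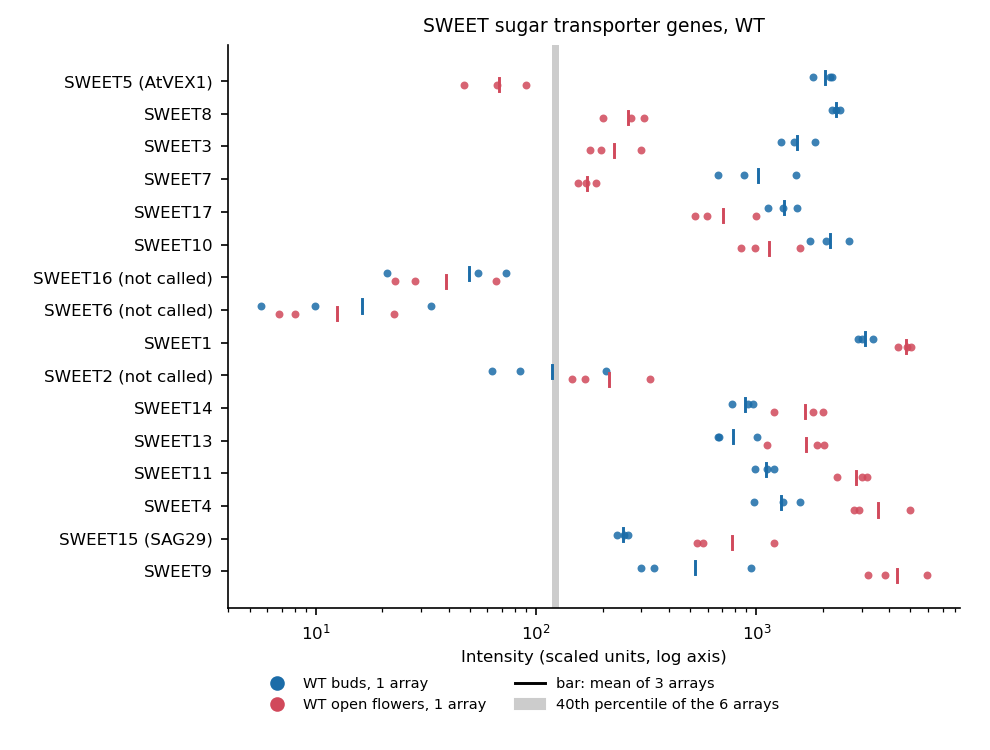
Intensity of the 16 SWEET genes in each WT array (log axis; blue, buds; red, open flowers; bars, means of 3 arrays; grey band, the 40th percentiles), ordered by log2 change. SWEET5 is dim in all open arrays, SWEET9 is higher in every open array than in any bud array, and SWEET2, SWEET6 and SWEET16 were not called.

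Genes of protein turnover rose. Vacuolar processing enzymes are proteases that mature vacuolar proteins and take part in cell death, and 3 of 4 were higher with none lower. GAMMA-VPE, the form of vegetative organs, read 2253, 1226 and 1500 in buds and 9526, 8245 and 10516 in open flowers (2.53 ± 0.21, adjusted p = 1.1e-07). DELTA-VPE, known from the seed coat, read 115, 281 and 133 and then 721, 2010 and 1260 (2.79 ± 0.45, adjusted p = 1.7e-04). ALPHA-VPE was dim in all 6 arrays (1.78 ± 0.37), and BETA-VPE was not called (1.28, 95% interval 0.22 to 2.33). With the replicate block (adjusted p = 0.0030) and without bud replicate 1 it was called, so that all 4 were higher.

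The 3 ATG8 probe sets, for the ubiquitin-like protein of autophagosomes, were all higher. APG8A read 1248, 1049 and 1081 in buds and 2196, 2115 and 2471 in open flowers (1.00 ± 0.15, adjusted p = 8.8e-05). ATG8E had 1.4 ± 0.26 and APG8H 0.51 ± 0.14, the latter lost in 2 of 16 alternative fits. Of 6 senescence genes read 5 were higher and none lower: GAMMA-VPE, ALPHA-VPE, SAG29 and the transcription factors WRKY6 (1.89 ± 0.36) and WRKY53 (1.43 ± 0.23). WRKY53 read 63.8, 59.4 and 71.8 in buds and 197, 228 and 185 in open flowers. SAG101 was not called (0.10, adjusted p = 0.887). Serine carboxypeptidase-like genes gave 8 higher and 4 lower of 29, with scpl38 (3.43 ± 0.26) and scpl29 (-1.66 ± 0.11) as the clearest of each direction. Without open replicate 1, and in the 6 WT arrays alone, the counts were 6 and 2.

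Enzymes of the ubiquitin pathway, which tags proteins for breakdown, included 3 higher and none lower among 13 conjugating enzymes. UBC29 read 575, 446 and 386 in buds and 1362, 1323 and 1460 in open flowers (1.54 ± 0.16, adjusted p = 1.8e-06), and UBC32 and UBC31 had 0.66 ± 0.11 and 1.97 ± 0.46. Of 9 U-box ligases 4 were higher and 1 lower, led by PUB24 (1.48 ± 0.27), PUB25 (1.42 ± 0.34) and PUB43 (0.80 ± 0.16). The replicate block gave 2 lower. The total was 3, all higher, when bud replicate 2 or 3 or any open replicate was left out. Of 11 subtilases, secreted serine proteases, SBT4.13 was lower, from 1571, 1189 and 1709 to 548, 442 and 692 (-1.39 ± 0.22, adjusted p = 1.7e-04), and ARA12 higher (0.59 ± 0.13). A further call in each direction was lost when bud or open replicate 2 or 3 was left out, and with the replicate block 4 were higher.

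Genes of flavonoid synthesis, the pathway of anthocyanins and seed coat tannins, were called for 6 of 7 read, 4 higher and 2 lower. BAN, the anthocyanidin reductase that makes tannin units in the seed coat, read 8.05, 3.37 and 3.47 in buds and 506, 1562 and 1188 in open flowers (5.58 ± 0.33, adjusted p = 4.0e-09, at least 7.10-fold). DFR, an earlier enzyme of the same branch, read 48.5, 31.9 and 75.6 and then 255, 482 and 596 (2.73 ± 0.30, adjusted p = 2.6e-06). Bud arrays were dim for both.

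Glycosyltransferases of the same pathway split. The anthocyanin enzymes UF3GT and AT4G14090 rose by 3.59 ± 0.45 and 2.56 ± 0.52, with bud arrays dim. The flavonol enzyme UGT78D3, dim in all arrays, fell by 2.03 ± 0.26. UGT78D2 had -0.62 ± 0.20, a call lost in 5 of 16 alternative fits, and UGT78D1 was not called (0.43, adjusted p = 0.146). Over the whole UGT family 9 of 51 probe sets were higher and 8 lower, or 5 lower without bud replicate 1 or 2. UGT87A2 read 136, 123 and 90.8 in buds and 736, 943 and 982 in open flowers (2.77 ± 0.20, adjusted p = 2.9e-08). Among 22 cytochrome P450 probe sets 6 were higher and 1 lower, and CYP71B38 is an example, at 40, 70.8 and 30.2 in buds and 431, 252 and 303 in open flowers (2.47 ± 0.32, adjusted p = 2.0e-05). Of 11 tau glutathione S-transferases, detoxifying enzymes, GSTU20 was lower (-1.35 ± 0.25), from 2736, 1816 and 1883 to 906, 982 and 611.

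Genes of floral scent were called for all 4 read, 3 higher and 1 lower. The terpene synthase gene AT3G25810 read 207, 481 and 194 in buds and 2288, 1267 and 1735 in open flowers, and the terpene synthase gene AT5G44630 read 2378, 2451 and 2012 and then 5001, 3919 and 4392. CYP71B31, a cytochrome P450 of linalool metabolism, read 4.63, 74.0 and 17.2 in buds and 5252, 914 and 900 in open flowers. The first open array of CYP71B31 stood far above the other open arrays. BSMT1, which makes the volatile esters methyl benzoate and methyl salicylate, went the other way, from 795, 320 and 439 to 268, 69.0 and 67.4 (-1.98 ± 0.42, adjusted p = 0.0022).

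Dehydration and cold proteins were mostly lower. Of 11 LEA and cold-regulated probe sets 6 were lower and 1 higher, with a median of -1.27, and with the replicate block 7 were lower and 2 higher. LEA (AT2G21490), a dehydrin, read 2332, 1100 and 1297 in buds and 40.2, 18.6 and 1.35 in open flowers (-5.55 ± 0.55, adjusted p = 7.5e-07, at least 11-fold). COR15A, a cold-induced plastid protein, read 9834, 14802 and 11734 and then 3880, 4488 and 3364 (-1.62 ± 0.29, adjusted p = 4.8e-04). The dehydrin COR47 rose, from 3639, 5316 and 4328 to 12974, 11911 and 13105 (1.53 ± 0.17, adjusted p = 3.2e-06).

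Genes of the anther wall and its opening and of hormone response gave few calls, since few were read. Both genes read from the list of anther wall and dehiscence, of 12 listed, were lower. RBOHE (AT1G19230), an NADPH oxidase, read 186, 142 and 149 in buds and 5.91, 10.1 and 23.6 in open flowers (-2.62 ± 0.41, adjusted p = 1.5e-04), and ADPG1, a polygalacturonase that separates cells at anther and fruit opening, had -1.31 ± 0.25. Of 6 jasmonate genes read, of 38 listed, THI2.1 and AIM1, a beta-oxidation enzyme (0.67 ± 0.14), were higher. The others were not called, although MYC4, a bHLH factor of jasmonate response, was with the replicate block (0.94, adjusted p = 0.0052), and JMT, which methylates jasmonate, spread from 180 to 595 among open arrays.

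Of 5 reproductive meristem (REM) factors 2 were lower and none higher (40% called, against 17.1% of all probe sets), or 3 lower with the replicate block. AT2G16210 read 330, 427 and 379 in buds and 176, 97.6 and 145 in open flowers (-1.37 ± 0.27, adjusted p = 0.0014), and REM22, dim on all arrays, had -1.94 ± 0.43. Of 22 bZIP probe sets 2 were higher and 1 lower (13.6% called), each with a call lost in at least 5 alternative fits, and none was called without open replicate 3. SPT, a regulator of the carpel margin, had -0.57 ± 0.15, a call lost in 2 of 16 alternative fits.

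Of 15 tetraspanins, membrane scaffold proteins, 4 were lower and 4 higher, and a total of 5 in place of 8 was obtained without open replicate 1 or without bud replicate 2. TET15 read 545, 592 and 455 in buds and 8.25, 7.91 and 12.2 in open flowers (-4.42 ± 0.39, adjusted p = 2.1e-07), whereas TET13 had 1.95 ± 0.24. CHX19, a cation/proton exchanger, had -3.34 ± 0.35, and the other 5 exchangers read were not called, although CHX20 (-0.84, adjusted p = 0.015) was with the replicate block, and a second exchanger was called in the 6 WT arrays alone and without open replicate 1. The calmodulin-like genes CML42 and CML41 changed by -1.58 ± 0.17 and 1.58 ± 0.23.

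The 8 rises with the largest change among genes whose mean exceeded 5000 intensity units in open flowers ranged from 1.24 to 2.68 log2 units. GILT, of the lysosomal thiol reductase family, read 1660, 3766 and 1731 in buds and 11062, 16375 and 16129 in open flowers (2.68 ± 0.34, adjusted p = 1.5e-05). The others were GAMMA-VPE, COR47, THI2.1, FDH, for formate dehydrogenase (1.57 ± 0.15), AT3G51730 of the saposin family (1.32 ± 0.17), AT5G50030 (1.41 ± 0.21) and AT3G22240 (1.75 ± 0.26). None of these 8 was dim on any WT array.

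The 15 largest rises that name 1 gene also held genes outside the lists above. AT5G10770 encodes an aspartyl protease (4.66 ± 0.49), AT1G68620 a carboxylesterase (4.42 ± 0.32), AT3G24510 a defensin-like peptide (4.49 ± 0.44) and AT2G38900 an inhibitor of serine proteases (4.03 ± 0.36). AT5G39520 (5.37 ± 0.25), AT1G16950 (4.24 ± 0.28) and AT5G47350 (4.13 ± 0.47) are given by locus only. All 15 were dim in every bud array, so that their bounds ran from at least 2.45-fold to at least 23.2-fold. The largest rise of all belonged to a probe set unnamed here, singled out after its values were seen. It read 2.72, 28.1 and 4.73 in buds and 13361, 6172 and 7574 in open flowers (8.38 ± 0.46, adjusted p = 1.6e-09). The largest fall was likewise of an unnamed probe set singled out after its values were seen, at 16965, 9752 and 15215 in buds and 294, 10.5 and 8.51 in open flowers (-7.86 ± 0.98, adjusted p = 1.1e-05).

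Of 21 listed genes of photosynthesis 4 were read, and none was called between the stages. LHCB4.1, a light-harvesting protein, read 10102, 11909 and 10175 in buds and 9925, 11435 and 9710 in open flowers. The 95% intervals of the log2 change were -0.33 to 0.23 for LHCB4.1, -0.34 to 0.20 for SBPASE and -0.39 to 0.27 for PRK, so changes of 2-fold lay outside each. For RCA, which spread more, the interval was -0.51 to 0.52. None of 69 probe sets of the plastid genome was called, and their median change was 0.27. The glutamate receptor-like family also had no call among 8 probe sets, although GLR2.8 had a change of 0.91 (95% interval 0.20 to 1.62, adjusted p = 0.077). Without bud replicate 1 this family had 1 call.

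The stage change of WT was set beside those of the other genotypes, which share no array with it. In OE 4960 probe sets were called (21.8%; 9.85% higher, 12% lower) and in KO 3468 (15.2%; 8% higher, 7.25% lower). All of the 15 largest falls of WT were called lower in OE and in KO, with medians of -6.80 in WT, -6.62 in OE and -5.76 in KO. Of the 15 largest rises all were called higher in KO and 13 in OE, with medians of 4.64, 4.48 and 3.77 in WT, KO and OE. The exceptions in OE were AT2G43590 and AT5G47350, with changes of 0.70 (adjusted p = 0.116) and 1.32 (adjusted p = 0.053). Both sets were chosen for their size in WT, so their medians and shared calls are no even comparison of the genotypes. Over all calls of WT, 1299 of 2012 rises and 1142 of 1877 falls were called in the same direction in both OE and KO.

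The difference itself was tested in the limma fit as the stage change of WT minus the mean stage change of OE and KO. No probe set was called (0%), 798 had an unadjusted p under 0.05, and the smallest adjusted p was 0.264. Against KO alone the count was 0 as well, with 412 at an unadjusted p under 0.05, and against OE alone it was 28 (0.123%). Of the genes described here 4 were among these 28. AT2G43590 and AT2G43620 of the chitinase family rose by 3.64 and 3.42 log2 units more in WT than in OE (adjusted p = 8.2e-04 and 0.0028), UF3GT by 3.46 (adjusted p = 0.041) and BAN by 2.94 (adjusted p = 0.016). No xylan gene passed the test in OE, where all 4 had been lower in WT, and none of these differences between WT and OE was called.

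**Figure D5:**
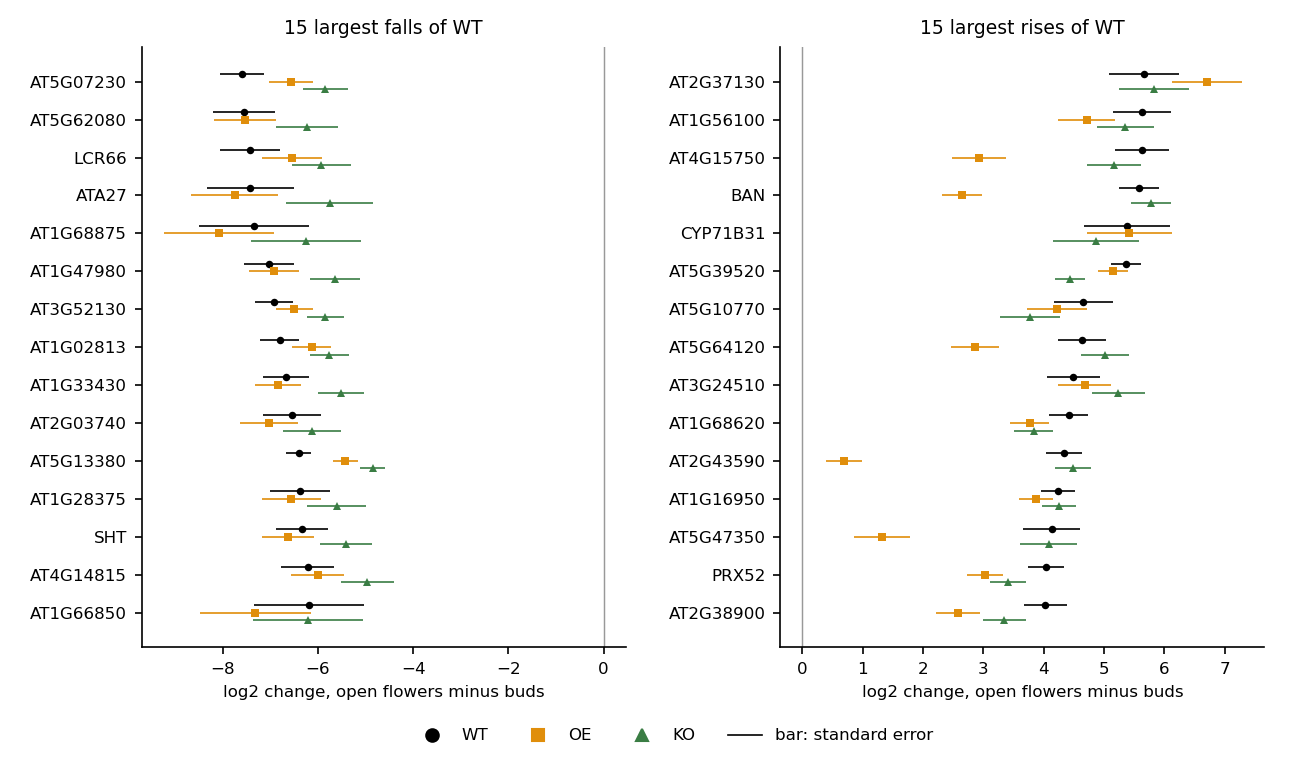
log2 change from buds to open flowers (x axis, with SE bars) of the 15 largest falls (left) and 15 largest rises (right) of WT, in WT (black circles), OE (orange squares) and KO (green triangles), 3 arrays per stage in each. All 15 falls lie below 0 in each genotype, and AT2G43590, AT5G47350 and BAN lie closer to 0 in OE than in WT; only the differences of AT2G43590 and BAN from OE were called among these 30 genes.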

How the data were processed

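The authors deposited linear intensities for 22810 probe sets on each of 18 arrays. How these were summarised and scaled is not stated in the labels used here. The mean over the 2nd to 98th percentile was 499.82 to 499.85 on every array, so the arrays had been scaled to a common level by the authors. Groups came from titles; the free-text descriptions, which contradict most titles, were not used. The number of arrays limits the precision.

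After 64 controls and 1 probe set with an empty cell were dropped, values were taken as log2(intensity + 16), with no brightness filter. The remaining 22745 were fitted with limma 3.58.1 (statmod 1.5.0) in R 4.3.3: 6 group means, 12 residual degrees of freedom, variance moderation with a trend over intensity, and Benjamini-Hochberg adjustment over all 22745. Adjusted p values are from this fit, which has no replicate term, unless an alternative is named. Intervals are unadjusted 95% intervals. The script was tested on simulated data. Bounds ("at least") compare the bright stage with the dim stage placed at the 40th percentile of each array or at its own value if higher.

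Names come from the platform annotation, updated through TAIR10.1 locus tags (13436 matched): 13513 probe sets name 1 gene, 503 several, and 8730 are unnamed here. Hand-written lists use the brightest single-gene probe set per gene, and families use all single-gene probe sets with a matching symbol. "Read" means so represented. Members, lists and tests were chosen with earlier results of these data known. Named genes are the 15 largest non-overlapping called changes of each direction, the 8 largest above 5000 units, up to 4 members of each list with the smallest p, and members named for their role; the difference of WT from the mean of OE and KO named none. Results for 1 gene family are not reported here.

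Alternatives to the WT comparison numbered 16: a brightness filter, offsets of 1 and 64, quantile normalization, median centring, the 6 WT arrays alone, a replicate block with all or only the WT arrays, robust and trend-free variance, and each WT array left out. Same-numbered WT bud and open arrays deviated together from their group means (r = 0.379, 0.190 and 0.101 across probe sets, which are not independent), so the numbers were taken to pair them, on the data and not on a label. Unequal numbers gave -0.256 to 0.0998, which nearly reaches the lowest of these. Over all pairs of the 6 groups, same-numbered arrays gave r of 0.017 to 0.394 (45 values). The main fit has no term for such a replicate effect, and the replicate block over all arrays called 4764 probe sets in place of 3889. Figures used matplotlib 3.10.9 in Python 3.11.15.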

Additional observations from a re-analysis of the deposited data

Results flagged for a closer look

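The change from buds to open flowers differed between WT and OE, by the test of the difference over all probe sets, for 4 of the genes described. The rise in WT exceeded that in OE by 3.64 log2 units for AT2G43590, by 3.42 for AT2G43620, by 3.46 for UF3GT and by 2.94 for BAN. In OE the stage changes were 0.70, -0.38, 0.14 and 2.64 in the same order, and in KO 4.48, 3.39, 2.81 and 5.78. In WT buds AT2G43590, UF3GT and BAN were dim on all 3 arrays, so the size of these differences depends on the offset. With 3 arrays per group, single arrays were not tested for standing apart.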

How the results depend on the processing

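The count of 3889 called probe sets stayed within 1.5 times under all 16 alternatives. It was 2953 in the 6 WT arrays alone and 4764 with a replicate block over all arrays (3886 of the 3889 shared), and 4036 with the block in the 6 WT arrays. Leaving out 1 WT array gave 3125 to 3439, with 1661 to 1886 higher and 1464 to 1644 lower. The share called higher was 51.0% to 54.8%. The brightness filter, which left 15110 probe sets, gave 3529 calls, of which 3290 were shared. All 39 genes chosen by size kept direction and call in all 16 alternatives, which their choice by size and lack of overlap made likely. Of all 3889 calls, 2853 were shared by the fit of the 6 WT arrays alone. Counts of list members moved by over 1.5 times in 64 cases and by less in 768. The difference between WT and the mean of OE and KO, with 0 calls, gave 1 call with a replicate block, 1 without OE_open replicate 1 and 1 without OE_open replicate 3, and 0 to 1 over all left-out arrays. The block removed no call among the genes chosen by size. Sizes of large changes depend on the offset, since 724 of the rises were dim in all bud arrays and 812 of the falls in all open arrays. Of all calls 1745 are unnamed here, so counts by group cover only part of the change.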
